A study of Homo sapiens with 12 samples.

Results

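Fibronectin (FN1), the integrin ligand EDIL3 and 8 other secreted adhesive glycoprotein genes (MFGE8, TNC, THBS1, THBS2, POSTN, VCAN, TGFBI and FBLN1) were followed across 4 groups of a human lung cancer line. These 10 genes were chosen from the secreted glycoproteins of the extracellular matrix, as a list drawn up with earlier results of the same arrays known. The values that guided the choice are not recorded, so every group difference of a member below is a description and not a test. Together the 10 genes had 38 probe sets on the array, of 54675 in all, and they stand among 19775 genes that had at least 1 probe set with a single gene symbol. None of the 38 probe sets was shared with another gene symbol.

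The cells were of the established line NCI-H1299, from a human non-small cell lung carcinoma, profiled on 12 Affymetrix HG-U133 Plus 2.0 arrays with 3 arrays in each group. The spheroid xenografts were tumours grown from cells that had been kept in stem-cell medium, and the parental xenografts were tumours grown from cells that had been kept in medium with serum. The spheroid cultures were cells held in stem-cell medium, in which floating cells were collected and moved to ultra low attachment flasks. The parental cultures were cells held in medium with serum. The origin of the cells and the medium therefore changed together in every spheroid to parental comparison, and the 2 cannot be told apart. The labels call the arrays of a group biological replicates but do not say whether the tumours of a group grew in separate animals, so the spread between them may be partly technical. The host of the tumours was not given in the labels.

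Matrix glycoproteins of this kind are secreted, bind to collagens, proteoglycans or each other, and are read by cells mainly through integrins. Fibronectin is laid down by cells as fibrils and carries the Arg-Gly-Asp motif that many integrins recognise. Its level is widely used as a sign of a mesenchymal state in carcinoma cells, and its gene responds to TGF-beta and to cyclic AMP through a CRE site in its promoter. EDIL3 and MFGE8 pair an Arg-Gly-Asp motif for alpha-v integrins with discoidin domains that bind phosphatidylserine on membranes. TGFBI and periostin (POSTN) are fasciclin domain proteins that link integrins to collagen. Tenascin-C and the thrombospondins modulate adhesion, versican (VCAN) carries chondroitin sulphate chains and binds hyaluronan, and fibulin-1 (FBLN1) sits in basement membranes and elastic fibres.

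The 250 bases upstream of the annotated start sites of FN1, EDIL3 and POSTN are shown because these 3 members were called between tumours and cultures of parental cells (below 0.05 after adjustment over all genes, by limma). They are the RefSeq promoters of GRCh38.p14, in which all 10 members were found, and EDIL3 and MFGE8 each have 2 listed start sites. All 3 genes lie on the minus strand, and the stretches are chr2:215436069-215436318 for FN1, chr5:84384881-84385130 for the outermost EDIL3 start and chr13:37598769-37599018 for POSTN. Capitals mark matches on either strand to CRE (TGACGTCA), AP-1 (TGANTCA), SMAD box (CAGAC), TEAD (GGAATG), the TATA box (TATAAA) or the GC box (GGGCGG), which can overlap each other.
FN1: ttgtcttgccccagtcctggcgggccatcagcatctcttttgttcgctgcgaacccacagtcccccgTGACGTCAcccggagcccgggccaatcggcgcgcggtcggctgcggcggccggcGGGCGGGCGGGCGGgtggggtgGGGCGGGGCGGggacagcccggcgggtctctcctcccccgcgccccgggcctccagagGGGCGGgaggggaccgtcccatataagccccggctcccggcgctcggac
EDIL3: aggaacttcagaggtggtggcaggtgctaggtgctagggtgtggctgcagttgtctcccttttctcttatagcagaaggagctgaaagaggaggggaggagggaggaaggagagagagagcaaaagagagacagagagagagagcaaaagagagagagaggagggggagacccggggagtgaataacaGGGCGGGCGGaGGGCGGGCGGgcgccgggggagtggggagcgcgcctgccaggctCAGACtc
POSTN: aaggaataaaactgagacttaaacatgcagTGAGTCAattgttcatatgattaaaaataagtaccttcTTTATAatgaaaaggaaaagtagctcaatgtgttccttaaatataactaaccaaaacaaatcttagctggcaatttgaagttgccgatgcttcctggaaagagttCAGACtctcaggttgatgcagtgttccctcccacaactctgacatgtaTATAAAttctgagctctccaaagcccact
The CRE letters were found in FN1 alone among the members, at position -183 counted from the start site, and in 1.65% of the 35116 promoters listed. The AP-1 letters were found in POSTN alone, at position -220, and in 6.57% of all promoters. GC box letters were found in 8 of 10 members, against 42.6% of all promoters, and SMAD box letters in 7 of 10, against 38%. The TEAD letters were present in MFGE8, THBS1 and THBS2, against 11.9% of all promoters, and the TATA box letters in THBS2 and POSTN, against 10.7%. A member counted where any of its listed start sites matched, whereas the percentages are over single promoters. The units are therefore unlike. A match is a description of these letters only, and no factor binding was measured.

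Values throughout are the deposited log2 expression values, and a gene with several probe sets is read by the brightest of them, on average over all arrays. Differences are on the log2 scale and stand with their standard error (SE) from a limma fit of all 12 arrays, and a gene was called when its Benjamini-Hochberg adjusted p over the 19775 genes was under 0.05. The number of arrays limits the precision, and the median SE of a difference over all genes was 0.20. Levels of different probe sets are not set against each other, and a probe set was called dim where it lay below the lower quartile of its array, which ran from 4.63 to 4.80. Array medians ran from 5.85 to 6.03, interquartile ranges from 2.81 to 3.43, the extremes both being parental cultures, and correlations between arrays of a group from 0.961 to 0.994. On parental culture replicate 2, 1153 genes lay more than 1 log2 unit above both other parental cultures, the most on any array. Spheroid culture replicate 1 stood apart in the genes described here. On it 24 of 19775 genes (0.121%) lay more than 2 log2 units above both other spheroid cultures, and 3 of these 24 were members (FN1, EDIL3 and TGFBI). Member differences that moved by over 1.5 times without this array are given both ways where they are described.

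The line's own markers were read from an epithelial and lung list that also holds vimentin. Vimentin (VIM) ran from 13.55 to 14.70 on the 12 arrays, and the epithelial adhesion genes EPCAM and CDH1 were dim on all of them. No other gene of the list was dim on every array of any group. Of the 9 genes of the epithelial and lung list, 0 rose and 2 fell in parental xenografts against parental cultures, with a list median of -0.01. These were the simple epithelial keratin genes KRT18 and KRT8, which fell by 1.71 (SE 0.34, adjusted p = 0.0191 by limma) and by 1.77 (SE 0.24, adjusted p = 0.00278 by limma). Between the cultures 1 of the 9 fell in spheroid cells, KRT8, by 1.43 (SE 0.24, adjusted p = 0.0109 by limma).

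**Figure D1:**
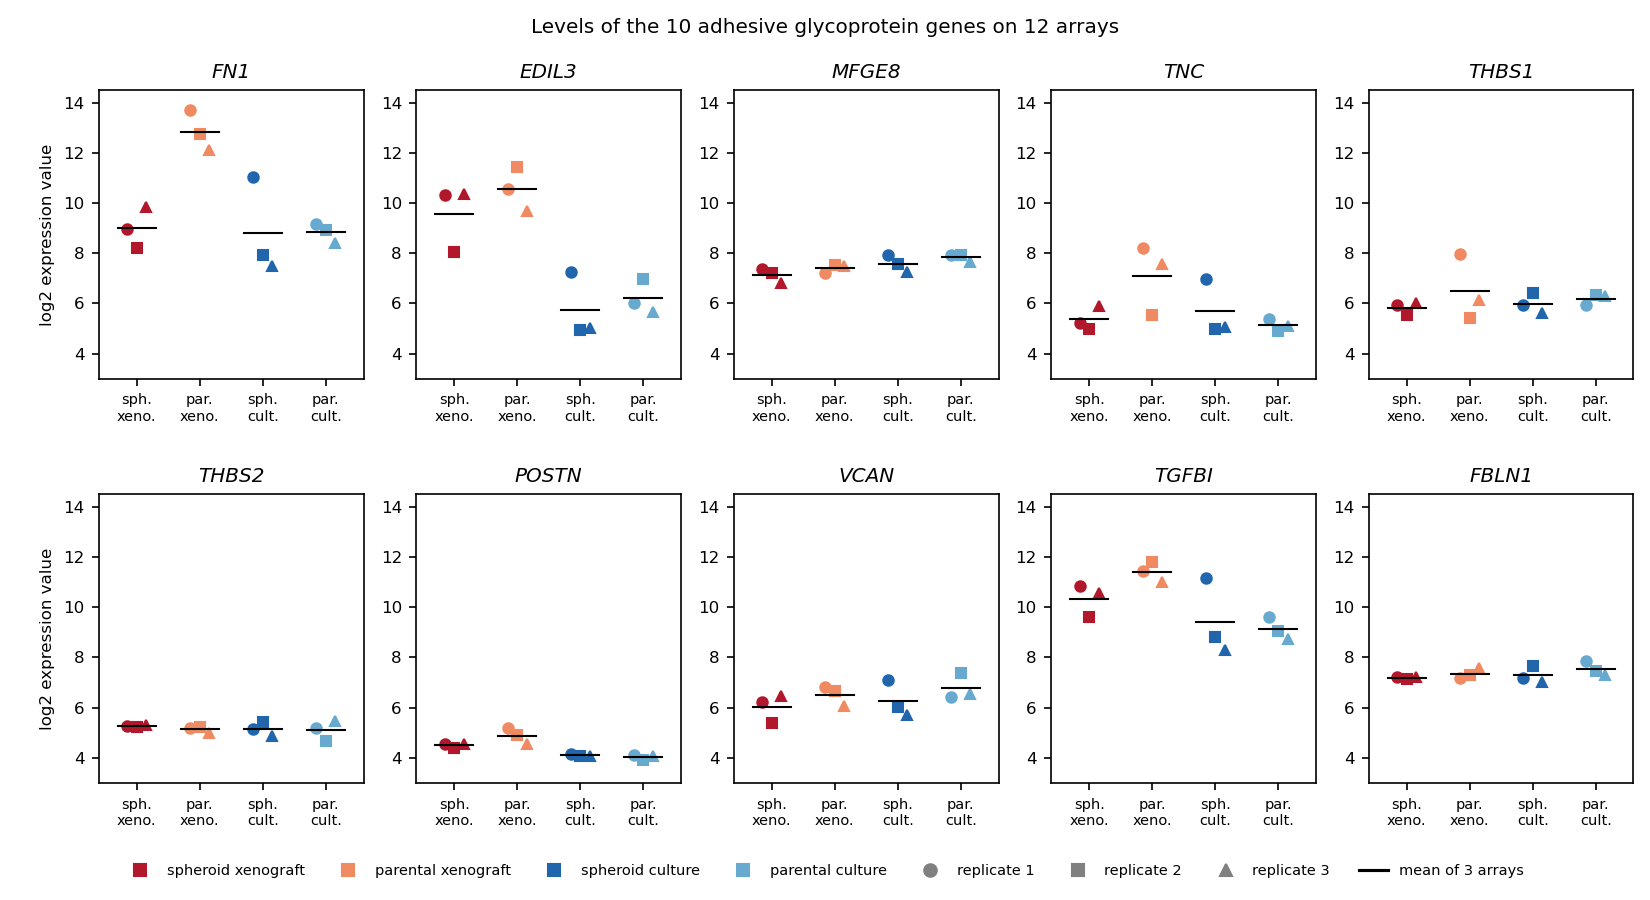
Log2 expression value of each of the 10 genes (vertical axis) on every array, by group (horizontal axis, spheroid xenograft, parental xenograft, spheroid culture, parental culture), with symbols for the replicate numbers and a bar at the mean of 3 arrays. FN1 lay between 12.09 and 13.70 in parental xenografts, above every other array, and EDIL3 lay at 8.05 or more in all 6 xenografts.

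Fibronectin was high in the parental xenografts and lower in the other 3 groups. FN1 read 8.95, 8.22 and 9.85 in spheroid xenografts, against 13.70, 12.75 and 12.09 in parental xenografts. In culture it read 11.03, 7.93 and 7.49 in spheroid cells, against 9.16, 8.92 and 8.40 in parental cells. All 3 parental xenografts lay above all 9 other arrays, and the highest of those 9 was spheroid culture replicate 1.

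Set against parental culture, FN1 was 4.02 log2 units higher in parental xenografts (SE 0.77, 16.2-fold), and the groups did not overlap. Spheroid xenografts were 3.84 lower than parental xenografts (SE 0.77, 14.3-fold), again without overlap. Spheroid xenografts and spheroid cultures overlapped, with a difference of 0.19 (SE 0.77), and the 2 cultures overlapped too, with a difference of -0.011 (SE 0.77). Without spheroid culture replicate 1 those 2 values became 1.30 (SE 0.50) and -1.12 (SE 0.50), and the cultures no longer overlapped. The xenograft difference (spheroid minus parental) less the culture difference was -3.83 (SE 1.09) with all arrays, and -2.72 (SE 0.67) without spheroid culture replicate 1.

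FN1 was called between xenograft and culture of parental cells, and was no longer called without parental xenograft replicate 1 (3.59), parental xenograft replicate 2 (4.07) or parental culture replicate 3 (3.81). Between the xenografts it was not called in the unweighted fit of all genes and all 12 arrays. It was called there without spheroid culture replicate 1, at a difference of -3.84, with an SE of 0.44 in place of 0.77. It was also called after a filter on dim genes, in a fit of only the 6 xenograft arrays and with array weights. Under those settings 65 of 14831, 161 and 1206 genes were called in all, against 46 in the unweighted fit. With array weights FN1 was called for the difference of differences too, among 896 genes. A further call came from a fit of the 6 xenograft arrays with the replicate number as a block, an alternative added once the data had been seen.

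Fibronectin's 7 probe sets did not read alike. On the 4 brightest the parental xenograft to culture difference ran from 4.02 to 4.22, and on 214701_s_at it was 2.29. The 2 others, 1558199_at and 214702_at, were dim on most arrays and gave 0.20 and 0.80. On 214702_at parental xenograft replicate 1 read 5.88, against 3.90 to 4.25 on the other 11 arrays. All 7 had the same sign in this comparison and in spheroid minus parental xenografts, where they ran from -4.16 to -0.30. Of the 4 brightest, 3 end in _x_at, a suffix for probe sets that may also bind other transcripts. Without the probe sets ending in _x_at or _s_at, the gene was read by 1558199_at and its difference was 0.20.

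EDIL3 was high in both kinds of xenograft and low in both cultures. It read 10.33, 8.05 and 10.34 in spheroid xenografts and 10.56, 11.44 and 9.69 in parental xenografts. Spheroid cultures read 7.23, 4.92 and 5.03, and parental cultures 6.02, 6.97 and 5.68. Every xenograft lay above every culture, the closest pair being spheroid xenograft replicate 2 and spheroid culture replicate 1.

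In parental cells EDIL3 was 4.34 log2 units higher in xenografts than in culture (SE 0.73, 20.2-fold), and in spheroid cells 3.84 higher (SE 0.73, 14.3-fold). Neither pair of groups overlapped. The 2 differences were themselves -0.50 apart (SE 1.03), and 0.25 apart (SE 0.91) with the opposite sign without spheroid culture replicate 1. Spheroid xenografts were 0.99 below parental xenografts (-0.99, SE 0.73) and spheroid cultures 0.49 below parental cultures (-0.49, SE 0.73), and both of these pairs overlapped. Without spheroid culture replicate 1 the difference between cultures was -1.25 (SE 0.68), and the other 2 spheroid cultures lay below all parental cultures. On this brightest probe set, 225275_at, the gene therefore varied with growth as a tumour by several times its SE. With the origin of the cells it varied there by less than 2 SE.

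The parental cell difference was called under all 23 alternative settings tried, including the removal of each array in turn. In spheroid cells it was not called in the unweighted fit of all 12 arrays. It was called without spheroid culture replicate 1, at 4.59 (SE 0.68), and with array weights. A fit of the 6 spheroid arrays with the replicate number as a block called it too, at 3.84, and was likewise added once the data had been seen. The 2 dimmer EDIL3 probe sets gave smaller differences of the same sign, 1.01 on 207379_at and 0.90 on 1558643_s_at in parental cells, and 0.37 and 0.28 in spheroid cells. Spheroid minus parental xenografts was -0.44 (SE 0.16) on 207379_at, without overlap, and -0.53 (SE 0.25) on 1558643_s_at, with overlap. Between the cultures these probe sets gave 0.20 (SE 0.16) and 0.09 (SE 0.25), opposite in sign to the brightest.

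MFGE8, the closest relative of EDIL3 in the list, did not follow it. It read 7.35, 7.23 and 6.83 in spheroid xenografts, 7.22, 7.54 and 7.48 in parental xenografts, 7.95, 7.58 and 7.24 in spheroid cultures, and 7.92, 7.94 and 7.67 in parental cultures. Parental xenografts lay below all parental cultures, by 0.43 (-0.43, SE 0.20), and spheroid xenografts overlapped spheroid cultures with a difference of -0.45 (SE 0.20), or -0.27 (SE 0.20) without spheroid culture replicate 1. Its second probe set, 1558960_a_at, gave -0.06 and -0.09 in the same comparisons.

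**Figure D2:**
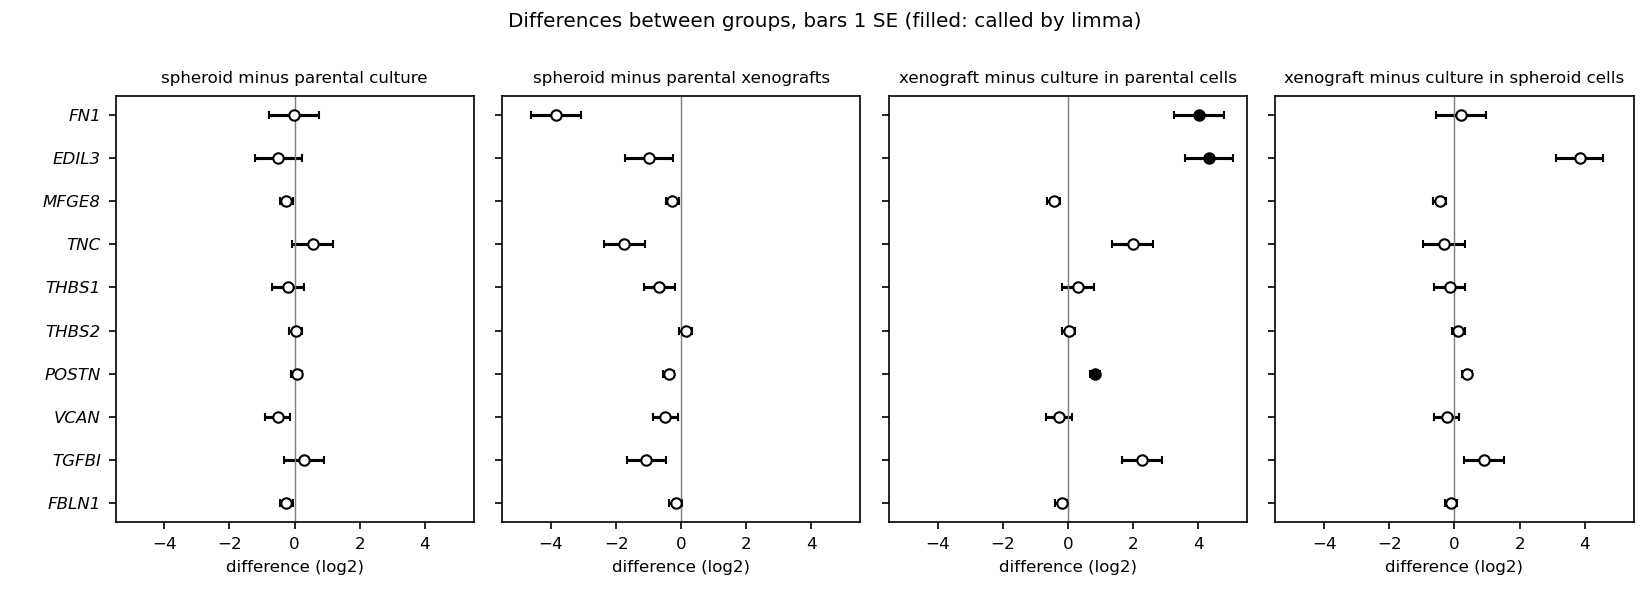
Log2 difference between groups (horizontal axis) of the 10 genes (vertical axis) in 4 comparisons, spheroid minus parental in culture and in xenografts and xenograft minus culture in parental and in spheroid cells, with bars of 1 SE and filled points where limma called the gene. FN1 is at 4.02 and EDIL3 at 4.34 for xenograft minus culture in parental cells, and FN1 is at -3.84 for spheroid minus parental xenografts.

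TGFBI, a fasciclin domain protein named for its induction by TGF-beta, was brightest in parental xenografts. It read 10.85, 9.59 and 10.57 in spheroid xenografts, against 11.44, 11.78 and 11.02 in parental xenografts. Spheroid cultures read 11.18, 8.80 and 8.31, against 9.63, 9.07 and 8.72 in parental cultures. All parental xenografts lay above all spheroid xenografts and all parental cultures, whereas the high spheroid culture replicate 1 lay among the xenografts.

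The difference between xenograft and culture of parental cells was 2.28 (SE 0.60, 4.85-fold), and that between spheroid and parental xenografts was -1.08 (SE 0.60). In spheroid cells xenografts exceeded cultures by 0.91 (SE 0.60) with overlap, and by 1.78 (SE 0.38) without spheroid culture replicate 1. Between the cultures the difference was 0.29 (SE 0.60), and -0.58 (SE 0.38) without that array. TGFBI was not called with all 12 arrays. In parental cells it was called under 6 alternatives. These were the fits without spheroid culture replicate 1 or 3, after a filter on dim genes, with only the groups compared and with the replicate block, at 2.28 in each case, and with array weights, at 2.75. TGFBI has 1 probe set, so no second reading was available.

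Periostin was near the floor of the array. Its brightest probe set, 1555778_a_at, read 4.57, 4.39 and 4.54 in spheroid xenografts and 5.19, 4.93 and 4.53 in parental xenografts. Spheroid cultures read 4.15, 4.09 and 4.09 and parental cultures 4.13, 3.91 and 4.08. On 10 of the 12 arrays this was below the lower quartile, and both exceptions were parental xenografts.

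POSTN was 0.84 higher in parental xenografts than in parental cultures (SE 0.16, 1.79-fold), and 0.39 higher in spheroid xenografts than in spheroid cultures (SE 0.16), without overlap in either pair. Its SE was below the median SE of all genes. It was called in parental cells, but not without parental xenograft replicate 1 (0.69), parental xenograft replicate 2 (0.82) or parental culture replicate 3 (0.86). Nor was it called with only the groups compared or with the mean of all probe sets, and the filter on dim genes removed it. The other 3 probe sets, all dim on nearly every array, gave 0.12, 0.0027 and -0.09 in parental cells, so the difference rests on 1 of 4 probe sets.

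Tenascin-C (TNC) was uneven within groups. It read 5.20, 4.97 and 5.92 in spheroid xenografts, against 8.20, 5.55 and 7.58 in parental xenografts. Spheroid cultures read 6.98, 4.98 and 5.08, against 5.36, 4.90 and 5.10 in parental cultures. The gene was thus high on 2 of 3 parental xenografts and on spheroid culture replicate 1, and low elsewhere.

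Parental xenografts exceeded parental cultures by 1.99 (SE 0.63) without overlap, and spheroid xenografts lay 1.75 below parental xenografts (-1.75, SE 0.63) with overlap. TNC was called in neither comparison with all 12 arrays. Without parental xenograft replicate 2, the low array, the first difference was 2.77 and was called. Between the cultures the difference was 0.56 (SE 0.63), and -0.091 (SE 0.59) without spheroid culture replicate 1. Between spheroid xenografts and cultures it was -0.32 (SE 0.63), and 0.33 (SE 0.59) without that array. The other 2 probe sets, 216005_at and 237169_at, were dim on all arrays and gave -0.07 and 0.21.

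Thrombospondin-1 (THBS1), which binds CD36, CD47 and integrins and can activate latent TGF-beta, was high on a single tumour array. On 201108_s_at it read 5.93, 5.56 and 6.01 in spheroid xenografts and 7.96, 5.42 and 6.13 in parental xenografts. Spheroid cultures read 5.95, 6.41 and 5.61 and parental cultures 5.92, 6.35 and 6.30. Parental xenograft replicate 1 stood above each of the other 11 arrays, the next highest being spheroid culture replicate 2, and all groups overlapped.

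Its probe sets disagreed on the cultures. On 201109_s_at and 201110_s_at, parental xenograft replicate 1 read 9.33 and 9.32, against 3.63 to 5.98 over both on the other 11 arrays. On 201110_s_at spheroid cultures read 4.23, 3.63 and 3.81, against 5.45, 5.94 and 5.59 in parental cultures, without overlap. The difference was -1.77 (SE 0.89) there, -0.83 (SE 0.81) on 201109_s_at, also without overlap, and -0.20 (SE 0.48) on 201108_s_at. Of the 7 probe sets 4 were lower in spheroid cultures. Spheroid xenografts exceeded spheroid cultures by 1.45 on 201110_s_at and by 0.45 on 201109_s_at, without overlap on either. On 201108_s_at they differed by -0.15 (SE 0.48), and 5 of the 7 probe sets had that sign. Without parental xenograft replicate 1 the difference between xenograft and culture of parental cells on 201108_s_at was -0.42 (SE 0.28), against 0.31 (SE 0.48) with it, and that between spheroid and parental xenografts was 0.061, against -0.67.

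**Figure D3:**
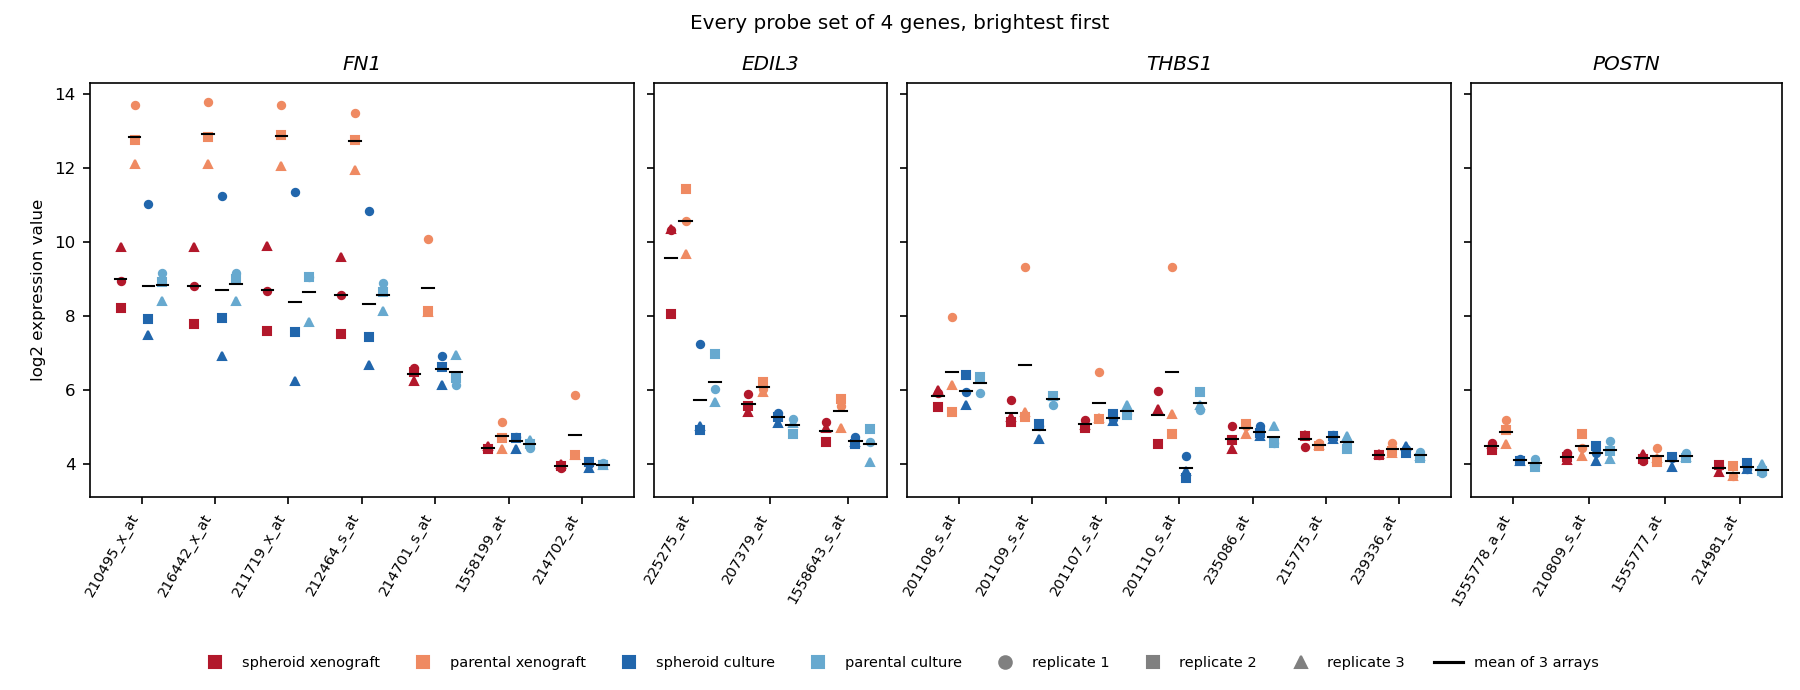
Log2 expression value (vertical axis) of every probe set of FN1, EDIL3, THBS1 and POSTN (horizontal axis) on the 12 arrays, with colours for the groups, symbols for the replicate numbers and bars at group means. Of 7 FN1 probe sets 6 separate the parental xenografts from the other groups, 1558199_at being the exception, and the THBS1 probe sets 201109_s_at and 201110_s_at read 9.33 and 9.32 on 1 parental xenograft only.

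The remaining members varied little between groups. THBS2, a close relative of THBS1, ran from 4.65 to 5.49 on the 12 arrays and its 4 differences from 0.021 to 0.13 (SE 0.21 each). It was dim on no array but lay near the lower quartile, and the filter on dim genes removed it. Its differences may therefore be compressed. FBLN1 ran from 7.03 to 7.86, and its differences from -0.25 to -0.11 (SE 0.19 each). VCAN ran from 5.40 to 7.37 and its differences from -0.51 to -0.24 (SE 0.39 each). On these brightest probe sets the 3 genes had overlapping groups in every comparison. Of the dimmer ones, 202995_s_at of FBLN1 and 221731_x_at and 204619_s_at of VCAN lay wholly lower in spheroid than in parental xenografts. The 5 FBLN1 probe sets disagreed in sign between the cultures, from -0.47 on 202995_s_at to 0.46 on 207835_at. The 5 probe sets of VCAN all lay lower in spheroid than in parental cells, both in xenografts (-0.65 to -0.28) and in culture (-0.55 to -0.23). Without spheroid culture replicate 1 the VCAN difference between cultures was -0.92 (SE 0.36), and that between spheroid xenografts and cultures was 0.17 (SE 0.36) in place of -0.24.

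Between xenografts and cultures of parental cells 3 of 10 members were called, FN1, EDIL3 and POSTN, all higher, where 3.47% of all genes were called (2% higher and 1.48% lower). Over probe sets 7 of 38 were called, against 2.34% of all probe sets. In this comparison 5 members (FN1, EDIL3, TNC, POSTN and TGFBI) lay wholly higher and MFGE8 wholly lower, where 7.37% of all genes lay wholly higher and 6.28% wholly lower. The median difference was 0.58 for the members and -0.0091 for all genes. Since the members may have been chosen for these values, nothing is read from the counts.

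In the other comparisons no member was called by limma. Between spheroid and parental xenografts 0.233% of all genes were called, 9 of 10 members had a negative difference and the median was -0.58, against 0.019 for all genes. There FN1 and TGFBI lay wholly lower, where 7.21% of all genes did so, and no member lay wholly higher, where 9.3% did. Between spheroid and parental cultures 2.46% of all genes were called, and the median of the members was -0.11 against 0.070 for all genes. No member's groups were apart there on its brightest probe set, where 7.21% of all genes lay wholly higher and 6.56% wholly lower. Between xenografts and cultures of spheroid cells 0.0202% were called, with EDIL3 and POSTN wholly higher, where 8.85% of all genes did so, and none wholly lower, where 9.85% did. For the difference of differences 0.137% of all genes were called. At an unadjusted p under 0.05 the members numbered 3 between the xenografts, 0 between the cultures, 3 in spheroid cells and 2 for the difference of differences, against 1452, 2767, 1461 and 1465 of all genes. These comparisons share groups with each other, so their values for a member are not independent.

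The genes that act with these glycoproteins were taken from 4 lists of 100 genes in all, of which 97 had a single-symbol probe set: 30 related matrix glycoproteins, 23 cell surface receptors, 24 proteases and crosslinkers, and 20 genes of TGF-beta signalling. The lists were made with earlier results of these arrays known. Between xenografts and cultures of parental cells 13 of the 97 rose and 0 fell, which is 13.4%. Of all genes 395 rose and 292 fell there. That split turned to 520 of 1177 calls rising after a second quantile normalisation and 478 of 1091 after cyclic loess. Rising calls numbered 276 of 775 without parental culture replicate 1 and 1246 of 1591 without parental culture replicate 2.

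Among the related matrix glycoproteins 4 of 30 rose in parental xenografts, with a list median of -0.03. Osteopontin (SPP1), an integrin and CD44 ligand, read 13.80, 14.19 and 13.69 in parental xenografts, against 11.52, 11.96 and 10.93 in parental cultures (2.42, SE 0.28, adjusted p = 0.00195 by limma). Thrombospondin-3 (THBS3) rose by 1.85 (SE 0.15, adjusted p = 1.14e-04 by limma), a relative of THBS1 and THBS2 whose groups were clearly apart. EFEMP2, an elastic fibre fibulin, rose by 1.11 (SE 0.14, adjusted p = 0.00234 by limma). HMCN1, a large fibulin family protein, rose by 0.98 (SE 0.24, adjusted p = 0.0458 by limma), and this call was kept in only 2 of the 12 fits that left out 1 array, those without parental culture replicate 2 or parental xenograft replicate 1 (0.82 to 1.25 over the 12). In parental cultures HMCN1 read 4.26, 4.78 and 4.22, near the lower quartile.

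In culture 2 of the 30 related glycoproteins rose in spheroid cells and 0 fell. SPP1 read 12.88, 12.91 and 13.33 in spheroid cultures, against 11.52, 11.96 and 10.93 in parental cultures (1.56, SE 0.28, adjusted p = 0.0158 by limma), and was not called without spheroid culture replicate 2 or 3 or parental culture replicate 3 (1.29 to 1.81 over the 12 fits). THBS3 rose by 0.99 (SE 0.15, adjusted p = 0.00660 by limma). Over all genes 2.46% were called in this comparison, 0.885% higher and 1.58% lower.

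Of the 23 receptors 4 rose in parental xenografts and 0 fell. Integrin beta-8 (ITGB8), which pairs with alpha-v and releases TGF-beta from its latent complex, read 7.51, 9.43 and 7.89 in parental xenografts, against 5.24, 4.73 and 4.20 in parental cultures (3.55, SE 0.48, adjusted p = 0.00277 by limma). Its partner integrin alpha-v (ITGAV), which also receives EDIL3, MFGE8 and fibronectin, read 12.21, 11.31 and 11.88 in parental xenografts, against 9.78, 10.72 and 9.58 in parental cultures (1.77, SE 0.29, adjusted p = 0.00710 by limma). For both genes the groups did not overlap. Syndecan-4 (SDC4), a heparan sulphate proteoglycan that binds fibronectin, rose by 1.34 (SE 0.22, adjusted p = 0.00673 by limma). Integrin alpha-4 (ITGA4), a receptor for fibronectin and osteopontin, rose by 1.13 (SE 0.24, adjusted p = 0.0251 by limma) and was not called without parental culture replicate 1 or 3 or without any 1 of the parental xenografts (0.97 to 1.37).

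ITGB8 was also the 1 receptor of 23 that changed between the xenografts. It read 5.36, 5.34 and 5.91 in spheroid xenografts, against 7.51, 9.43 and 7.89 in parental xenografts (-2.74, SE 0.48, adjusted p = 0.0442 by limma). With the replicate number as a block its adjusted p was 0.0751. The call was kept in 4 of 12 fits without 1 array, those without parental culture replicate 1 or 2, spheroid culture replicate 1 or parental xenograft replicate 1 (-3.12 to -2.17 over the 12). Of all genes 0.0506% were called higher and 0.182% lower in this comparison, 10 and 36 genes, and the split was 22 higher of 69 calls after separate quantile normalisation of cultures and xenografts and 2 of 20 after median centring.

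In culture 1 receptor rose in spheroid cells and 2 fell. Integrin alpha-2 (ITGA2), a collagen receptor subunit, rose by 2.14 (SE 0.51, adjusted p = 0.0495 by limma). This call was kept in 3 of 12 fits without 1 array, those without spheroid culture replicate 1 or parental xenograft replicate 1 or 2 (1.86 to 2.51 over the 12). CD44, the receptor for hyaluronan and osteopontin, read 10.08, 8.88 and 8.84 in spheroid cultures, against 10.50, 11.27 and 11.40 in parental cultures (-1.79, SE 0.33, adjusted p = 0.0167 by limma). It was not called without spheroid culture replicate 2 or 3 or parental culture replicate 3 (-2.20 to -1.58 over the 12 fits), and the mean of all its probe sets gave -0.85. Integrin alpha-3 (ITGA3), a laminin and thrombospondin receptor subunit, fell by 1.65 (SE 0.38, adjusted p = 0.0451 by limma). Its call was kept in 3 of 12 fits, those without parental xenograft replicate 3 or without replicate 1 of either culture group (-2.07 to -1.34). Of all genes 175 of 487 calls were higher in spheroid culture, and 77 of 350 after median centring. Higher calls numbered 167 of 853 without parental culture replicate 1 and 492 of 763 without parental culture replicate 2. The direction of this split thus depended on single arrays.

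**Figure D4:**
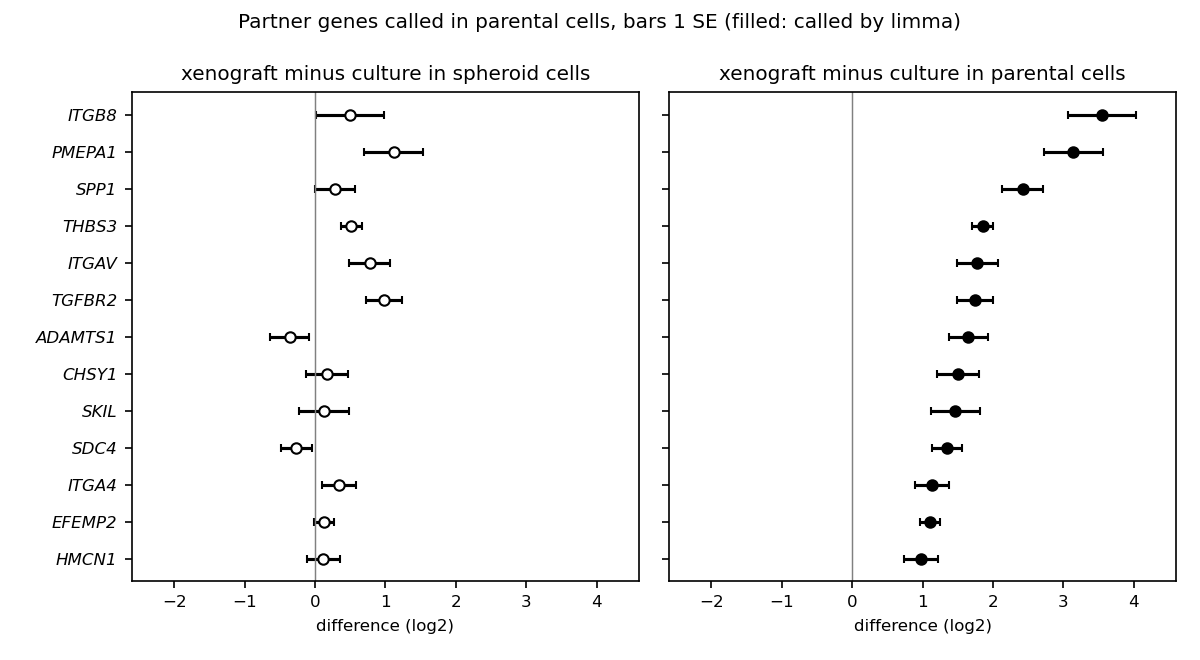
Log2 difference between xenograft and culture (horizontal axis) of the 13 partner genes that rose in parental cells (vertical axis), in spheroid cells on the left and in parental cells on the right, with bars of 1 SE and filled points where limma called the gene. In parental cells the values run from 0.98 for HMCN1 to 3.55 for ITGB8, and none of the 13 was called in spheroid cells. The genes were picked by their calls in parental cells, which favours larger values on the right.

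Of the 24 proteases and crosslinkers 2 rose in parental xenografts and 0 fell. ADAMTS1, a protease that cleaves versican, read 6.74, 7.54 and 6.34 in parental xenografts, against 5.59, 4.92 and 5.17 in parental cultures (1.65, SE 0.28, adjusted p = 0.00793 by limma). CHSY1, a chondroitin sulphate synthase, rose by 1.51 (SE 0.30, adjusted p = 0.0184 by limma) and was not called without parental culture replicate 3 or parental xenograft replicate 1 (1.21 to 1.82). Between the xenografts 1 of 24 fell, again ADAMTS1, which read 5.39, 5.15 and 5.06 in spheroid xenografts (-1.67, SE 0.28, adjusted p = 0.0365 by limma). That call was kept in 4 of 12 fits, those without parental culture replicate 1 or 2, spheroid culture replicate 1 or parental xenograft replicate 3 (-1.94 to -1.34). Between the cultures LOXL2, a lysyl oxidase that crosslinks collagen, fell by 2.91 (SE 0.66, adjusted p = 0.0414 by limma) in spheroid cells. Its call was kept in 4 of 12 fits, those without spheroid culture replicate 1, parental xenograft replicate 2 or 3, or spheroid xenograft replicate 3 (-3.64 to -2.50), and the mean of its probe sets gave -0.85.

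Of the 20 genes of TGF-beta signalling 3 rose in parental xenografts and 0 fell, with a list median of 0.67, against -0.0091 for all genes. PMEPA1, a TGF-beta target that restrains the pathway, read 13.04, 12.21 and 11.50 in parental xenografts, against 9.33, 9.44 and 8.55 in parental cultures (3.14, SE 0.42, adjusted p = 0.00250 by limma). The receptor TGFBR2 rose by 1.75 (SE 0.26, adjusted p = 0.00387 by limma). SKIL, a repressor of SMAD proteins and itself a TGF-beta target, rose by 1.47 (SE 0.35, adjusted p = 0.0435 by limma). The SKIL call was kept in 3 of 12 fits, those without parental culture replicate 2 or spheroid xenograft replicate 1 or 3 (1.22 to 1.90), and the mean of its probe sets gave 0.67. In culture the ligand gene TGFB1 fell by 1.01 in spheroid cells (SE 0.18, adjusted p = 0.0123 by limma), and was not called without spheroid culture replicate 3 (-1.17 to -0.90 over the 12 fits).

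In spheroid cells none of the 97 partner genes was called between xenografts and cultures by limma with all 12 arrays. The 13 that rose in parental cells had differences there from -0.36 for ADAMTS1 to 1.12 for PMEPA1. These 13 were picked by their calls in parental cells, a choice that favours larger values in those cells. Nothing is therefore read from their smaller values in spheroid cells. With the replicate number as a block and only the spheroid arrays, 5 of the 97 were called. Of all 19775 genes 591 were called in that fit, against 4 with all 12 arrays. For the difference of differences 1 of 97 fell, THBS3 (-1.34, SE 0.21, adjusted p = 0.0403 by limma). It was kept in 2 of 12 fits, those without parental culture replicate 1 or 2 (-1.42 to -1.21), and its adjusted p was 0.0705 with the replicate number as a block. With that block and only the xenograft arrays, 11 partner genes were called between spheroid and parental xenografts, against 2 with all 12 arrays. Calls over all genes rose there too, to 491 from 46, so nothing is read from the rise.

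Among markers of the other cells a tumour can hold, only fibroblast genes were called. The fibroblast list had a median of 0.05 between xenografts and cultures of parental cells, against -0.0091 for all genes, of which 2% were called higher. Of 11 fibroblast genes 2 rose in parental xenografts against parental cultures, FAP by 2.20 (SE 0.22, adjusted p = 8.50e-04 by limma) and COL3A1 by 2.06 (SE 0.37, adjusted p = 0.0126 by limma). FAP, a fibroblast protease, read 5.92, 5.96 and 5.87 in spheroid xenografts, against 7.58, 6.78 and 7.45 in parental xenografts (-1.35, SE 0.22, adjusted p = 0.0365 by limma), and 5.35, 4.70 and 5.16 in parental cultures. Its difference of differences was -1.94 (adjusted p = 0.0416 by limma, and 0.0521 with the replicate number as a block). COL3A1, a fibrillar collagen, read 6.41, 6.14 and 7.27 in spheroid xenografts, 7.71, 7.88 and 6.28 in parental xenografts, and 5.14 to 5.43 in all 6 cultures.

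The summed level of the 11 fibroblast genes ran from 65.49 to 66.46 in spheroid xenografts and 65.24 to 70.76 in parental xenografts, against 63.78 to 65.47 in spheroid cultures and 60.62 to 65.25 in parental cultures. Of these genes LUM and OGN were dim on all 12 arrays. No gene of the pericyte, endothelial and myeloid lists (7, 10 and 9 genes) was called in any comparison. Their summed levels were 47.00 to 47.79, 52.44 to 54.55 and 48.24 to 50.76 in spheroid xenografts, and 49.15 to 49.94, 51.04 to 54.18 and 47.91 to 50.95 in parental xenografts. In spheroid cultures they were 47.02 to 49.42, 53.12 to 55.06 and 49.45 to 51.18, and in parental cultures 46.43 to 48.85, 51.50 to 55.26 and 46.22 to 51.01. The endothelial genes KDR and TIE1 were dim on all arrays and CDH5 on all xenografts.

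A probe set that the platform annotation names Igk, a symbol of immunoglobulin kappa whose gene number was not in the human gene table used, read 12.26 on spheroid xenograft replicate 1 and 13.04 on parental xenograft replicate 1, while the other 10 arrays read 5.68 to 7.77. The second of these arrays is the one on which THBS1 stood out. The part of host RNA or of fibroblasts in the values of FN1, THBS1, POSTN and the other members was not tested. In such bulk samples a lower level may mean fewer cells of a type or less RNA per cell, which cannot be told apart.

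The genes whose 4 group means were most like those of a member were found by the root mean square difference of the centred means, over 4 groups and among all 19775 genes that are not members. For FN1 these were SPARC (0.186), SCG2 (0.328) and ITGB8 (0.408). SPARC, a matrix glycoprotein that binds collagen, averaged 4.71 in spheroid xenografts, 8.96 in parental xenografts, 4.49 in spheroid cultures and 4.81 in parental cultures. Outside the parental xenografts its means lay near the lower quartile of the arrays (4.63 to 4.80), so differences among them may be compressed. For EDIL3 the likeness was weaker, S100A4 (0.726), the Igk probe set (0.803) and COL6A1 (1.09). For TGFBI they were RRAD (0.0546), ATXN1 (0.149) and FRMD4A (0.154), and for TNC they were COL9A3 (0.0958), SERPINA3 (0.0996) and ADAMTS1 (0.126). With 4 means a likeness is a description only.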

How the data were processed

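RNA of 12 samples of the NCI-H1299 line was measured on 1 array each, in 4 groups of 3 taken from the titles. Each probe set of an array has 1 deposited log2 value, made with RMA in affy (versions not given in the sources used here), per the submitters' processing notes. RMA values of dim probe sets are compressed, which makes small differences smaller.

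Control probe sets were left out, and genes were named from probe sets with 1 symbol in the platform annotation. R 4.3.3 and limma 3.58.1 (lmFit, eBayes) fitted 1 mean per group to all 12 arrays, with 8 residual degrees of freedom, in 5 comparisons with two-sided tests. The fit was tested on simulated data. The smallest p of an exact permutation test with 3 against 3 arrays is 0.1, so none was used. The members and all lists were chosen with earlier results of these data known. Of partner genes those called were named. Alternatives changed the probe set rule, the normalisation, a filter, the arrays fitted, array weights and each array.

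Replicate numbers come from the titles. Deviations of same-numbered arrays from their group means correlated at 0.18, 0.21 and 0.48 between the xenografts. Between xenografts and cultures of spheroid cells they correlated at 0.34, 0.33 and 0.43, so the number was taken as a possible pair in both comparisons. Each of these correlations exceeded those with other numbers, except for replicate 1 between the xenografts. That array correlated more with another number, at 0.26, so the pairing of the xenografts is uncertain. Between the cultures they were 0.33, -0.24 and -0.30, and in parental cells 0.19, -0.45 and -0.43, so it was not.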

Additional observations from a re-analysis of the deposited data

Results flagged for a closer look

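THBS3, a thrombospondin related to THBS1, had differences of opposite sign with cell origin in culture and in tumours, of which that in tumours was not called. Spheroid minus parental was 0.99 in culture and -0.35 in xenografts, all arrays of a group moving the same way, and the difference between them was -1.34 (adjusted p = 0.0403 by limma, higher in 3 of 3 spheroid cultures and lower in 3 of 3 spheroid xenografts). The adjusted p of that test was 0.0705 with the replicate block, and the call was lost in 10 of 12 fits without 1 array. EFEMP2, an elastic fibre fibulin, gave 0.58 in culture and -0.39 in xenografts, also without overlap, and the test of that difference did not pass (adjusted p = 0.0866 by limma). SDC4, a fibronectin-binding syndecan, gave 0.70 in culture and -0.91 in xenografts, and its test did not pass either (adjusted p = 0.0763 by limma). ITGA2, a collagen receptor subunit, was 1.54 higher in xenografts than in cultures of parental cells, and -1.34 in spheroid cells, each without overlap. The difference between those 2 values, spheroid minus parental, was -2.87 and did not pass (adjusted p = 0.200 by limma).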

How the results depend on the processing

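No member was called between the cultures under any of 23 alternatives. The directions of the members and partner genes named as called were kept under all alternatives run. Members called between the xenografts (0 with all arrays) numbered 1 after a filter on dim genes, 1 with only the groups compared, 2 with array weights, 1 with the replicate block and only the groups compared, and 0 to 1 when 1 array was left out. In parental cells (3) they numbered 1 to 4 when 1 array was left out. In spheroid cells (0) they numbered 1 with array weights, 1 with the replicate block and only the groups compared, and 0 to 1 without 1 array. For the difference of differences (0) they numbered 1 with array weights. Where the count in parental cells stayed within this range, its members differed: the mean of all probe sets called FN1 and EDIL3, and the fit without _x_at and _s_at probe sets called EDIL3 and POSTN. With only the groups compared, and after the filter on dim genes, FN1, EDIL3 and TGFBI were called.

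Partner genes called between the cultures (7) numbered 2 without _x_at and _s_at probe sets, 4 with every probe set in the fit, 12 after either quantile normalisation, 4 after median centring, 11 after cyclic loess, 0 with only the groups compared, 24 with array weights, and 1 to 10 without 1 array. Between the xenografts (2) they numbered 1 with the mean of probe sets, 0 without _x_at and _s_at, 0 with every probe set, 1 after a second quantile normalisation, 1 after median centring, 1 after cyclic loess, 4 with only the groups compared, 1 with the replicate block, 20 with array weights, 11 with the block and only the groups compared, and 0 to 3 without 1 array. In parental cells (13) they numbered 21 after separate quantile normalisation of cultures and xenografts, 5 with only the groups compared, 22 with array weights, and 9 to 21 without 1 array. In spheroid cells (0) they numbered 1 with only the groups compared, 8 with array weights and 5 with the block and only the groups compared. For the difference of differences (1) they numbered 2 after either quantile normalisation, 0 after median centring, 2 after cyclic loess, 0 with the replicate block, 16 with array weights, and 0 to 3 without 1 array. The fits of only 2 groups have fewer arrays, and the cause of the other shifts was not tested.

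The replicate block in all 12 arrays ended the call of no partner gene between the xenografts other than ITGB8. With it TGFBI was called in parental cells, where the numbers do not pair the samples. Over all genes, calls ran from 15 with only the groups compared to 2095 with array weights between the cultures, from 4 without spheroid xenograft replicate 2 to 1206 with array weights between the xenografts, and from 69 to 2343 in parental cells by the same pair of settings as in culture. In spheroid cells they ran from 1 without spheroid culture replicate 2 to 915 with array weights, and for the difference of differences from 2 to 896. With the replicate block and only the groups compared they numbered 491 between the xenografts and 591 in spheroid cells. Signal near background limits POSTN, THBS2 and the dim probe sets of FN1, TNC and THBS1.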

Other observations

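The genes that set spheroid culture replicate 1 apart, beside FN1, EDIL3 and TGFBI, were led by the zinc finger gene PLAGL1, which read 8.43 there, against 4.99 and 4.86 in the other spheroid cultures and 8.73, 9.30 and 8.17 in parental cultures. The collagen crosslinker LOXL2 read 8.18 there, against 6.09 and 5.90, and the protease inhibitor TIMP2 read 9.99, against 7.75 and 7.50. The gap junction gene GJB2 read 9.37 there, 2.80 above the higher of the other 2. For PLAGL1, LOXL2 and TIMP2 the array lay closer to the parental cultures than the other spheroid cultures did, while for GJB2 it lay above the parental cultures, which read 5.62, 6.21 and 5.28. The genes named here and for the next array were chosen after their values were seen.

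On parental xenograft replicate 1, the array on which THBS1 stood out, 15 genes lay more than 2 log2 units above both other parental xenografts. They included the gelatinase MMP2, which cleaves fibronectin and collagens and read 12.36 there, against 6.97 to 7.99 on the other 11 arrays. The collagen VI chain gene COL6A3 read 9.59 there, 3.59 above the higher of the other 2 parental xenografts, and NPTX2 read 11.62, against 6.99 and 6.65 in them.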
